A study of Homo sapiens with 12 samples.

Results

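The METTL, NSUN and TRMT genes are 3 groups of genes named for methyltransferase activity, most of them on RNA. They were taken by symbol, as every row on chromosomes 1 to 22 and X whose name starts with METTL or NSUN and a digit, or with TRMT. This gave 50 of 19219 gene rows, with 28 METTL, 6 NSUN and 16 TRMT genes. The cells are HEK293, an established human embryonic kidney line, carrying a CRISPR-Cas9 knockout of the zinc-finger protein CNBP or wild type. Ribosome footprints were sequenced after cycloheximide, which stalls elongating ribosomes (3 knockout and 5 wild-type libraries), or after harringtonine and cycloheximide (1 knockout and 3 wild-type libraries), where harringtonine holds ribosomes at start codons. Both knockout columns carry 1 knockout name and no label counts the clones, so features of a clone and effects of the knockout cannot be told apart.

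Methyl groups on RNA are added by separate enzyme families. METTL3 and METTL14 form the core of the complex that writes N6-methyladenosine (m6A) on mRNA, METTL1 and most TRMT enzymes modify transfer RNA, and the NSUN enzymes methylate cytosines in transfer, ribosomal and mitochondrial RNA. TRMT112 is a small activating partner of several methyltransferases, among them METTL5 and TRMT11. The shared METTL name marks a protein fold rather than a substrate, and the label of RNA methyltransferases holds for only some of them. Of the 28 METTL genes, 12 were listed as acting on RNA, 12 as protein methyltransferases and 4 in neither list. RefSeq now names 8 of the 50 differently. METTL10 and METTL21B are EEF1AKMT2 and EEF1AKMT3 (lysine methyltransferases of the elongation factor eEF1A), METTL11B is NTMT2, METTL12 is CSKMT (of citrate synthase) and METTL20 is ETFBKMT (of an electron transfer flavoprotein). METTL7A and METTL7B are TMT1A and TMT1B, thiol methyltransferases, and TRMT12 is TYW2.

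The deposited table holds 1 mean ribosome density per gene and group and no value per library, so there is no spread between replicates and no test between groups was run. Intervals are 95% counting intervals on effective reads (density times transcript length, divided by the table's value of 1 read). They leave out differences between libraries. Because the longest transcript's length was used, effective reads are probably too high, and intervals too narrow, for genes read from shorter transcripts. The estimated totals were 848679 effective reads in the knockout and 2142600 in wild type with cycloheximide, and 400913 in the knockout and 1133810 in wild type with harringtonine. Each log2 ratio has the median ratio subtracted, taken over 6045 genes with all 4 means above 0 and a level, the geometric mean of the 4 densities, above 0.114. A gene at that median is called the median gene. CNBP itself had densities of 2.20 in the knockout and 3.73 in wild type with cycloheximide, and 2.36 and 3.27 in the same order with harringtonine. Relative to the median gene CNBP was at -0.32 (interval -0.58 to -0.07) and -0.19 (-0.59 to 0.20), so its footprints do not by themselves check the knockout label, and groups are named as labelled. The blood, liver and endothelial markers PTPRC, CD3E, ALB, APOA1 and PECAM1 were listed at 0 wherever a value was given, and VIM, KRT8 and KRT18, which HEK293 cells express, were above 0 in all 4 groups. Of the other HEK293 markers, IGF2BP1 and LIN28B were above 0 and the neurofilament gene NEFM was listed at 0. The fibroblast collagens COL1A2 and COL3A1 were at 0.0282 or less in every group. More ribosomes per mRNA and more mRNA per cell cannot be told apart by these densities.

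Most of the 50 genes stood above the median density of all genes with footprints in the same group. This held for 31 in the knockout with cycloheximide and, with harringtonine, for 32 in the knockout and 31 in wild type. In wild type with cycloheximide it held for 36 of the 50, where that median was 0.0949. TRMT112 was the highest there, with densities of 2.28 in the knockout and 2.44 in wild type with cycloheximide and of 1.81 in the knockout and 2.44 in wild type with harringtonine. NSUN2, which makes m5C in transfer RNA and mRNA, followed at 0.965 in wild type with cycloheximide, then METTL2A, which makes 3-methylcytidine in transfer RNA, at 0.853 and TRMT10C, a subunit of mitochondrial RNase P, at 0.789. The order of these 3 in wild type rests on 352, 222 and 147 effective reads. METTL2B (0.489), TRMT1 (0.482), TRMT5 (0.401), METTL5 (0.385), METTL24 (0.382) and METTL1 (0.360) completed the 10 highest in wild type with cycloheximide. METTL5 overlaps 1984 bases of SSB on the other strand, which had 1.74 in that group. Mixing of reads between METTL5 and SSB was not tested. METTL2A and METTL2B are near-identical copies, so the division of reads between them is uncertain.

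**Figure D1:**
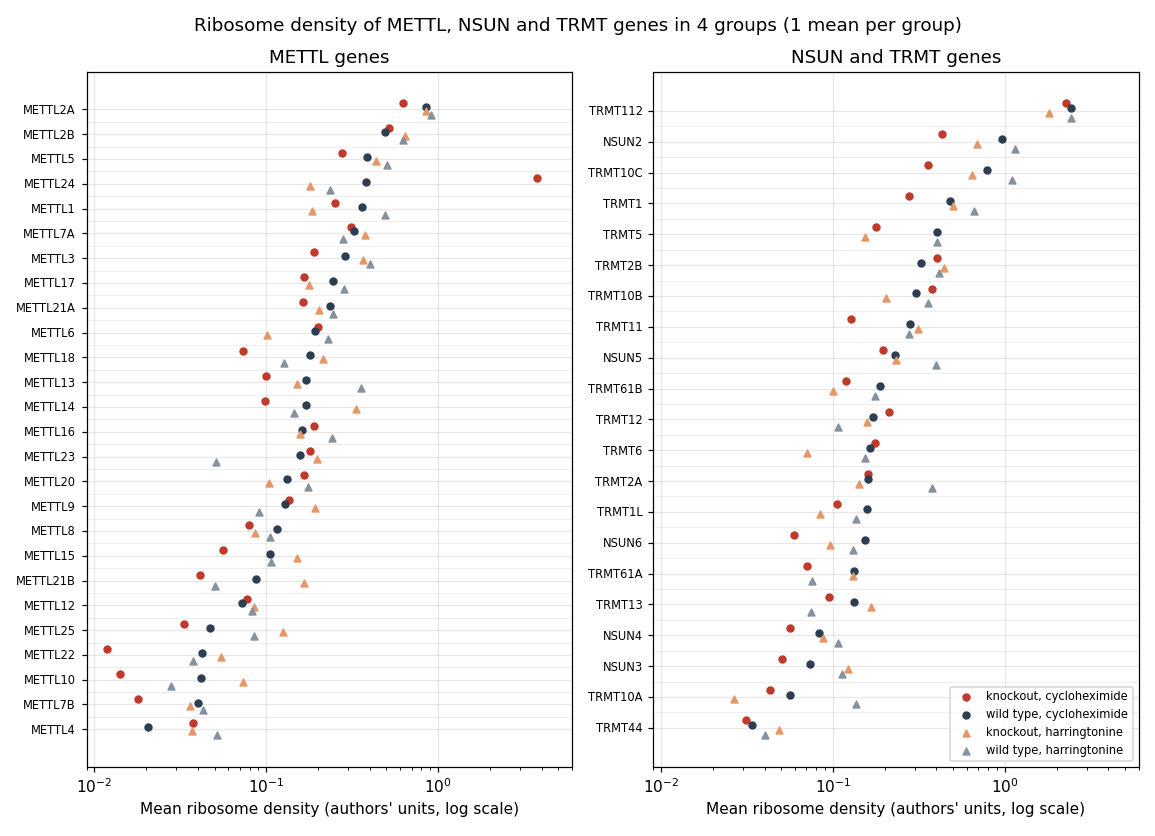
Mean ribosome density (authors' units, log scale) of the 47 METTL, NSUN and TRMT genes with all 4 means above 0. Each point is 1 group mean, circles for cycloheximide and triangles for harringtonine. METTL24 at 3.77 in the knockout with cycloheximide lies far above its other 3 means, of 0.179 to 0.382.

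Of the 50 genes, 31 were above the level and were compared, 16 were below it and 3 had a group at 0. The 3 were METTL21C, listed at 0 in all 4 groups, NSUN7, at 0.00231 in wild type with cycloheximide and 0 elsewhere, and METTL11B, at 0 in both knockout groups and at 0.0376 and 0.0326 in wild type with cycloheximide and with harringtonine. The 16 below the level included METTL4, METTL8 and METTL15 of the RNA-modifying METTL genes, NSUN3, NSUN4 and NSUN6, and TRMT10A, TRMT13, TRMT44 and TRMT61A. The others were METTL10, METTL12, METTL21B and METTL22, of the protein methyltransferases, METTL7B and METTL25. Their densities ran between 0.0118 and 0.166. Of the 31 compared, METTL23 and TRMT1L would be below the level without the group in which they are highest.

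With cycloheximide, METTL24 was far higher in the knockout than in wild type, and the other genes compared lay within 2-fold of the median gene. The 31 had a median log2 ratio of -0.01 (quartiles -0.27 and 0.54), against 0 for all 6045 genes (quartiles -0.34 and 0.39), with 15 above and 16 below the median gene. METTL24 was the 1 gene at least 2-fold higher, where 4.43% of all genes were, and 0 were at least 2-fold lower, where 3.24% were. The median ratio subtracted was -0.44 in log2, and without that step 59 of the 6045 genes lay 2-fold or more above and 844 below, against 268 and 196 with it. The density of METTL24 was 3.77 in the knockout and 0.382 in wild type with cycloheximide, on 190 and 43.8 effective reads, a log2 ratio of 3.75 (interval 3.27 to 4.26), or 13.4-fold. With harringtonine METTL24 had 0.179 in the knockout and 0.234 in wild type. The high mean comes from the knockout with cycloheximide alone, and a mean does not show how it divides among the 3 libraries. METTL24 has no role described here. It lies at hg19 chromosome 6, 110567131 to 110679475, minus strand, and its span overlaps 8348 bases of CDC40 on the other strand, which had 0.226 in the knockout and 0.271 in wild type with cycloheximide.

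The m6A writers METTL3 and METTL14 were below the median gene with cycloheximide, with intervals that include 0. METTL3, the catalytic subunit, had densities of 0.189 in the knockout and 0.287 in wild type, a log2 ratio of -0.16 (interval -0.92 to 0.55). METTL14, its RNA-binding partner, had 0.0981 in the knockout and 0.170 in wild type, or -0.35 (-0.98 to 0.25). METTL16, which methylates U6 small nuclear RNA and the MAT2A mRNA, lay on the other side at 0.67 (0.14 to 1.18), with 0.188 in the knockout and 0.161 in wild type. METTL5, the ribosomal RNA m6A enzyme, stood at -0.04, and its partner TRMT112 at 0.35 (0.02 to 0.67). On the deposited scale, without centring, TRMT112 was at -0.10, so its side depends on the centring, as do the sides of NSUN5, METTL7A and TRMT2A. Without centring 11 of the 31 genes were above 0, against 15 with it.

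Among the enzymes of transfer RNA, NSUN2, TRMT5 and TRMT10C formed the lower end with cycloheximide. NSUN2 had 0.432 in the knockout and 0.965 in wild type, a log2 ratio of -0.72 (interval -1.11 to -0.34). TRMT5, which makes 1-methylguanosine beside the anticodon, had 0.178 in the knockout and 0.401 in wild type, or -0.73 (-1.22 to -0.26), and TRMT10C had 0.356 and 0.789 in the same order, or -0.71 (-1.33 to -0.13). These 3 were the genes of the 31 whose interval lay below 0. TRMT11, which methylates guanosine with TRMT112, was -0.69 (interval -1.72 to 0.22), with 0.128 in the knockout and 0.281 in wild type. On the upper side, TRMT2B, the mitochondrial 5-methyluridine enzyme, was 0.76 (0.29 to 1.22), TRMT10B 0.76 (0.16 to 1.34) and METTL2B 0.53 (0.22 to 0.83), whereas its near copy METTL2A was -0.01 (-0.41 to 0.38). The interval lay above 0 for 7 of the 31 genes, where it did for 14.3% of all genes, and below 0 for 3, where it did for 14.9%. Centring subtracted a median ratio of -0.44 and so raised all of these ratios. Without it, of the 7, only METTL24 has an interval above 0.

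**Figure D2:**
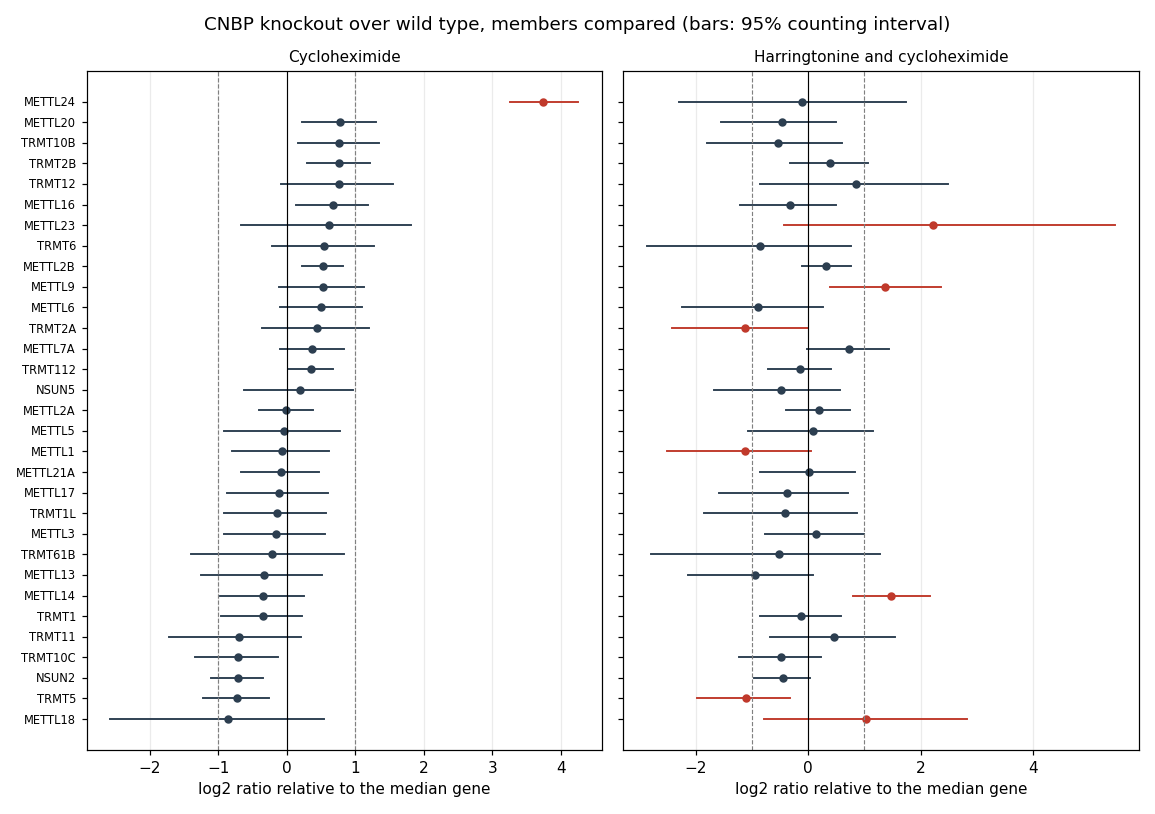
Log2 ratio of CNBP knockout over wild type, relative to the median gene, for the 31 genes compared, with cycloheximide (left) and harringtonine (right). Points are ratios of group means, bars are 95% counting intervals, dashed lines mark 2-fold and red marks genes past it. METTL24 stands apart at 3.75 on the left and lies at -0.11 on the right, where METTL14 is at 1.48.

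The protein methyltransferases among the METTL genes did not share a direction with cycloheximide. Of 6 compared, 3 were above and 3 below the median gene, with a median of 0.22. METTL20 was 0.77 (interval 0.22 to 1.31), with densities of 0.166 in the knockout and 0.132 in wild type. METTL18, which methylates a histidine of a ribosomal protein, had the lowest ratio of the 31 at -0.85 (-2.58 to 0.54), with 0.0730 in the knockout and 0.179 in wild type. With harringtonine METTL18 had 0.213 in the knockout and 0.127 in wild type. It lies wholly within C1orf112 on the other strand (2438 bases), which had 0.0357 in the knockout and 0.151 in wild type with cycloheximide. Library preparation kept strand per the labels' kit name, but no source used here states whether counting used it. Mixing of reads between METTL18 and C1orf112 was not tested. In all, 26 of the 50 genes overlap another gene of the table. The 9 RNA-modifying METTL genes compared had a median of -0.04, the 12 TRMT genes 0.10, and the 2 NSUN genes were NSUN2 and NSUN5 (0.20). The 5 mitochondrial members compared had a median of -0.11. Of the genes not yet given, TRMT12, which acts in wybutosine synthesis, was at 0.76 with an interval that includes 0, METTL7A at 0.37 and TRMT1, which makes dimethylguanosine in transfer RNA, at -0.35. METTL17, METTL21A, TRMT1L and TRMT61B lay between -0.21 and -0.08.

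With harringtonine, METTL14 and METTL9 were above the median gene in the single knockout library, with intervals above 0, 2 of 31 genes where 7.91% of all genes were so. The density of METTL14 was 0.332 in the knockout and 0.145 in wild type, a log2 ratio of 1.48 (interval 0.80 to 2.17), or 2.79-fold, on 42.0 and 35.3 effective reads. METTL14 lies at hg19 chromosome 4, 119606523 to 119636588, plus strand. METTL9 is a protein histidine methyltransferase at hg19 chromosome 16, 21608539 to 21668794, plus strand. It had 0.191 in the knockout and 0.0903 in wild type, or 1.37 (0.38 to 2.36), on 20.3 and 18.4 effective reads. Its span overlaps 11373 bases of IGSF6 on the other strand, which had 0.0959 in the knockout and 0.0998 in wild type. Mixing of reads between METTL9 and IGSF6 was not tested. With cycloheximide METTL9 had 0.135 in the knockout and 0.128 in wild type. METTL23 (2.23, interval -0.43 to 5.46) and METTL18 (1.04, -0.80 to 2.82) were also at least 2-fold higher, on 4.40 and 6.14 effective reads in the knockout and 2.21 and 7.02 in wild type. The densities of METTL23 were 0.196 in the knockout and 0.0512 in wild type with harringtonine, and 0.179 in the knockout and 0.158 in wild type with cycloheximide. These 4 of 31 compare with 6.72% of all genes. METTL3, the partner of METTL14, lay nearer the median gene. It had 0.365 in the knockout and 0.404 in wild type, a log2 ratio of 0.14 (-0.77 to 1.00).

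On the lower side with harringtonine were TRMT2A, METTL1 and TRMT5, 3 of 31 where 6.58% of all genes were. TRMT2A and TRMT5 had intervals below 0, as 10.6% of all genes did. The knockout values of TRMT2A, METTL1 and TRMT5 rest on 7.99, 7.20 and 16.2 effective reads. Without subtracting the median ratio of -0.28, 190 of the 6045 genes lay 2-fold or more above and 757 below, against 406 and 398 with it. TRMT5, at hg19 chromosome 14, 61438169 to 61448076, minus strand, had 0.153 in the knockout and 0.401 in wild type, a log2 ratio of -1.10 (interval -1.97 to -0.32). It was thus below the median gene in both drug conditions, each with an interval below 0. The share of all genes with intervals below 0 in both conditions was not counted. TRMT2A, the 5-methyluridine enzyme of cytosolic transfer RNA, had 0.142 in the knockout and 0.379 in wild type, or -1.13 (-2.43 to -0.01). With cycloheximide TRMT2A had 0.160 in both genotypes, or 0.44 relative to the median gene (-0.36 to 1.20). It overlaps 1455 bases of RANBP1, which had far denser footprints, at 2.26 in the knockout and 2.58 in wild type with harringtonine. METTL1, which makes 7-methylguanosine in transfer RNA with WDR4, had 0.184 in the knockout and 0.488 in wild type, or -1.12 (-2.51 to 0.05). With cycloheximide METTL1 had 0.253 in the knockout and 0.360 in wild type, or -0.07. Overlapping METTL1 by 1302 bases on the other strand is METTL21B, which had 0.165 in the knockout and 0.0504 in wild type, the opposite order, and was below the level. The 17 METTL genes compared had a median of 0.09 with harringtonine, with 10 above and 7 below the median gene, and the 6 protein methyltransferases among them 0.52 (4 above, 2 below). The TRMT genes had a median of -0.44, with 9 of 12 below the median gene, and both NSUN genes were below it (NSUN2 -0.45, NSUN5 -0.49). NSUN2 had 0.691 in the knockout and 1.15 in wild type. The 31 genes together had a median of -0.14. The 5 of them with at least 30 effective reads in both genotypes had 0.23, centred anew on the 1483 genes passing that minimum. These 2 medians are therefore not on 1 scale.

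The cycloheximide and harringtonine ratios of the knockout come from 4 separate sets of libraries. For METTL14 and METTL24 the counting intervals of the 2 ratios did not touch, 2 of 31 genes where this held for 7.61% of all genes. METTL14 was at -0.35 with cycloheximide and 1.48 with harringtonine, and METTL24 at 3.75 and -0.11. Of the 31 genes, 0 were at least 2-fold from the median gene in both conditions, a share near the 1.99% of all genes that were. A shared side of the median gene was seen for 15 of 31 genes, against 56.8% of all genes.

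TRMT6 and TRMT61A form the complex that makes 1-methyladenosine in transfer RNA, and their densities differed in order. TRMT6, the non-catalytic subunit, had 0.176 in the knockout and 0.163 in wild type with cycloheximide, and 0.0704 in the knockout and 0.155 in wild type with harringtonine. TRMT61A, the catalytic one, had 0.0705 in the knockout and 0.132 in wild type with cycloheximide, and 0.131 in the knockout and 0.0753 in wild type with harringtonine. The knockout values of TRMT6 and TRMT61A with harringtonine rest on 4.03 and 8.00 effective reads, so neither order is resolved at this depth. TRMT61A was below the level and has no ratio here.

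Harringtonine over cycloheximide alone gave few large ratios in wild type. TRMT2A was the 1 gene at least 2-fold higher (3.41% of all genes were), with densities of 0.379 with harringtonine and 0.160 with cycloheximide alone, a log2 ratio of 1.13 (interval 0.49 to 1.76). METTL13, which methylates eEF1A, followed at 0.96 (0.36 to 1.56), with 0.357 and 0.170 in the same order. METTL23 was the 1 gene at least 2-fold lower (3.31% of all genes), at -1.74 on 2.21 effective reads with harringtonine and 19.2 with cycloheximide alone (interval -4.67 to 0.24). The interval lay above 0 for TRMT2A and METTL13, 2 of 31 where it did for 15.7% of all genes, and below 0 for 0, where it did for 11.0%. Without subtracting the median ratio of 0.11, 270 of the 6045 genes lay 2-fold or more above and 135 below, against 206 and 200 with it. The wild-type median of the 31 was 0.10, with 16 above and 15 below the median gene.

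In the knockout, the same drug comparison had 3 genes at least 2-fold higher, where 5.51% of all genes were, and 4 lower, where 6.82% were. METTL14 was highest at 1.49 (interval 0.77 to 2.22), with 0.332 with harringtonine and 0.0981 with cycloheximide alone. METTL18 (1.27) and TRMT11 (1.02) had intervals that include 0. TRMT11 had 0.314 with harringtonine and 0.128 with cycloheximide alone in the knockout, and 0.277 and 0.281 in the same order in wild type. METTL24 was lowest at -4.68 (-6.64 to -3.26), TRMT6 was -1.59 (-3.57 to -0.06), METTL6, which makes 3-methylcytidine in serine transfer RNA, -1.26 (-2.60 to -0.11), and TRMT10B -1.18 (-2.42 to -0.10). METTL6 had 0.101 with harringtonine and 0.200 with cycloheximide alone in the knockout, and 0.230 and 0.191 in the same order in wild type. TRMT10B, a transfer RNA enzyme whose span overlaps 11995 bases of EXOSC3, had 0.203 and 0.379 in that order in the knockout, and 0.358 and 0.305 in wild type. The interval lay above 0 for METTL14 alone, where it did for 8.95% of all genes. It lay below 0 for 6 of the 31 (METTL24, TRMT6, METTL6, TRMT10B, METTL20 and TRMT112), where it did for 6.40%. Of these 6, only METTL24 has an interval below 0 without centring. With harringtonine the knockout values of METTL24, TRMT6, METTL6 and TRMT10B rest on 3.78, 4.03, 7.69 and 8.77 effective reads. Those of METTL20 and TRMT112 rest on 12.0 and 37.9. Without subtracting the median ratio of 0.27, 646 of the 6045 genes lay 2-fold or more above and 204 below, against 333 and 412 with it, and 18 of the 31 were above 0 rather than 13. These ratios use the same knockout means as the comparisons with wild type above and are not a second observation of METTL14 or METTL24. The median of the 31 was -0.14.

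**Figure D3:**
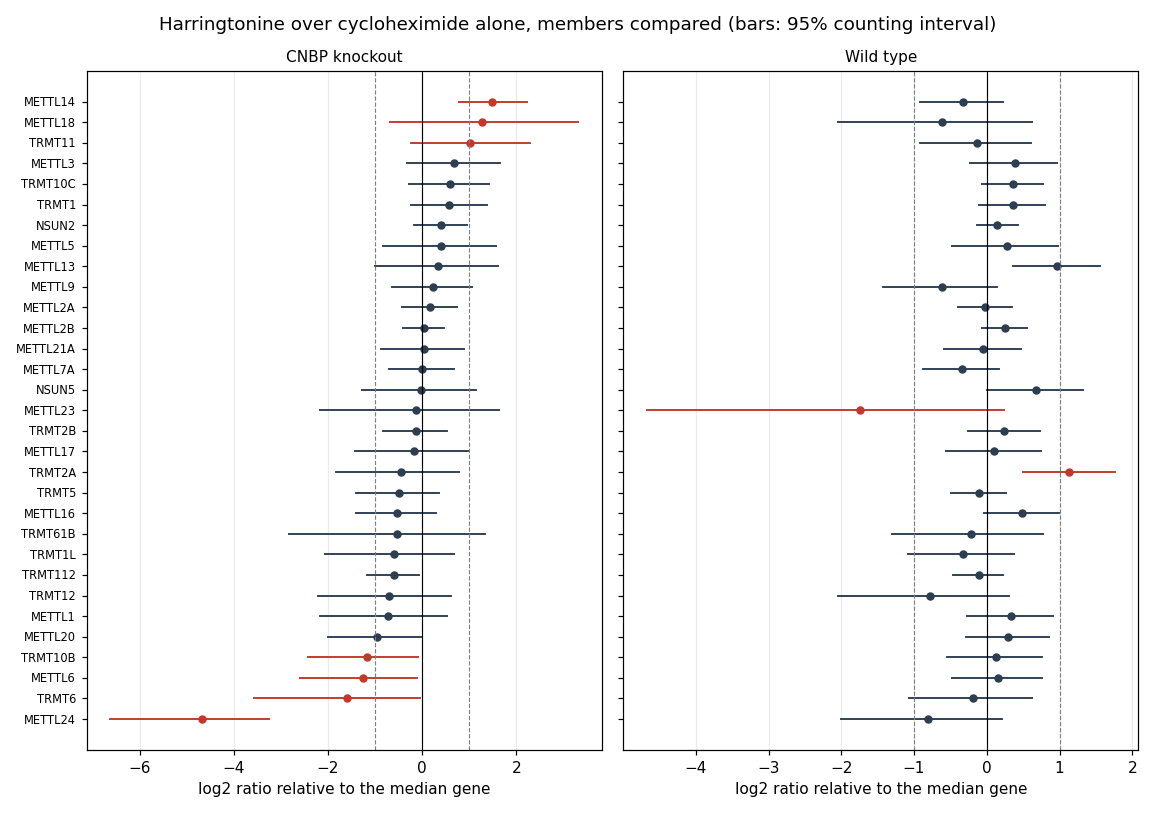
Log2 ratio of harringtonine over cycloheximide alone, relative to the median gene, for the 31 genes compared, in the CNBP knockout (left) and wild type (right). Points are ratios of group means, bars are 95% counting intervals, dashed lines mark 2-fold and red marks genes past it. METTL14 (1.49) and METTL24 (-4.68) mark the ends in the knockout, and TRMT2A (1.13) and METTL23 (-1.74) in wild type.

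The authors' deposited table also gives a value named TE beside each log ratio named LFC, wild type over knockout, and the header does not expand TE. In the authors' deposited table LFC minus TE was the same number with cycloheximide and with harringtonine for all 12241 genes that have both, within 1e-06. TE therefore differs from LFC by 1 number per gene, whatever the drug. What that number was measured from is not stated. For 26 of the 31 genes compared it was within 0.25 of 0 in log2, as for 84.1% of the 6045 genes in the authors' deposited table. METTL24 had the largest of the members at 0.81, above 99.6% of the genes, which puts its TE in the authors' deposited table at -4.12 with cycloheximide and -0.42 with harringtonine, against an LFC of -3.30 and 0.39. METTL7A (0.63) and METTL7B (0.58) followed in the authors' deposited table, and TRMT61A (-0.36), TRMT10A (-0.34) and METTL18 (-0.32) were lowest.

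**Figure D4:**
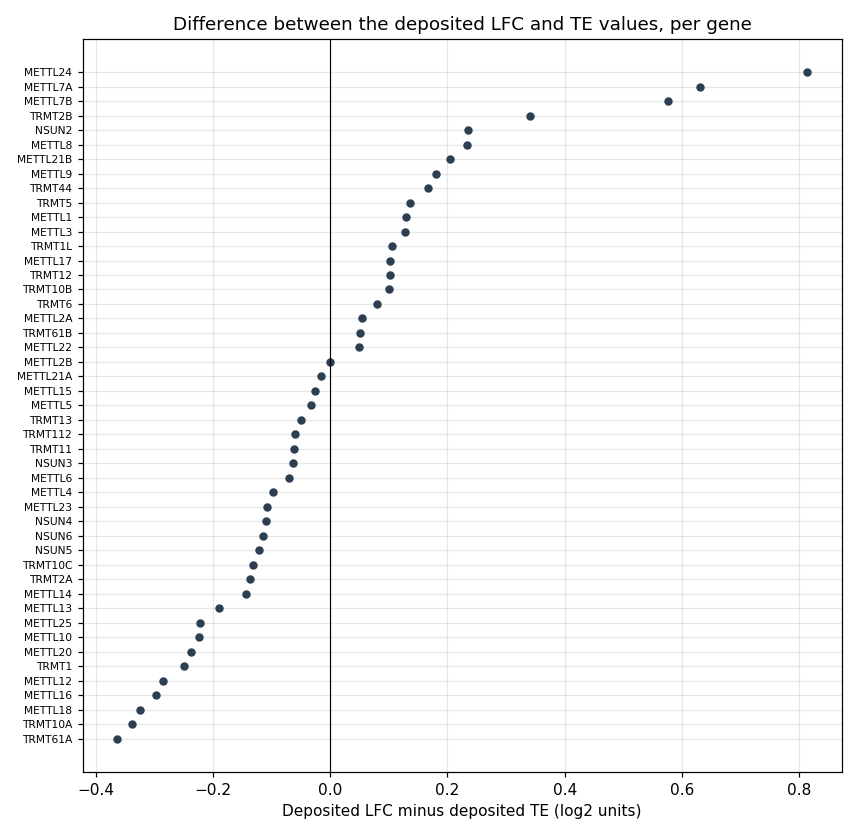
Difference between the deposited LFC and TE values (log2 units) of the 47 METTL, NSUN and TRMT genes that have both, 1 point per gene, sorted. METTL24, METTL7A and METTL7B stand between 0.58 and 0.81, and the other genes between -0.36 and 0.34.

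Related genes that are not members were compared as a setting for the members, in 2 lists. Of 13 m6A partners, erasers and readers compared with cycloheximide, 2 were above and 11 below the median gene, with a median of -0.20. Intervals lay above 0 for 1 of the 13 and below 0 for 5, where 14.3% and 14.9% of all genes were so. The 3 genes named per list have the largest ratios over counting error in that comparison. Their cycloheximide intervals off 0 thus follow from how they were picked. The nuclear reader YTHDC1 was 0.79 (interval 0.39 to 1.18), with densities of 0.303 in the knockout and 0.238 in wild type. The helicase reader YTHDC2 was -0.75 (-1.28 to -0.25) and the cytoplasmic reader YTHDF3 -1.16 (-2.10 to -0.34). With harringtonine the m6A list had a median of 0.19. Of 23 other RNA methyltransferases and their subunits, 7 were above and 16 below with cycloheximide, with a median of -0.26, and 5 above and 18 below with harringtonine (-0.50). With cycloheximide, intervals lay above 0 for 2 of the 23 and below 0 for 3. The mRNA cap methyltransferase RNMT was 1.20 with cycloheximide (0.70 to 1.70), with 0.214 in the knockout and 0.126 in wild type. TGS1, which hypermethylates the caps of small nuclear RNAs, was -2.08 (-3.48 to -0.95) on 6.61 effective reads in the knockout and 86.2 in wild type. The ribosomal RNA methyltransferase FBL was -0.29 (-0.49 to -0.09). With harringtonine RNMT was at -0.34 (-1.31 to 0.55), with 0.122 in the knockout and 0.188 in wild type, and YTHDC2 at 0.44 (-0.21 to 1.08), each on the other side of the median gene. The other genes named from these lists were at 0.32 (YTHDC1), -0.11 (YTHDF3), -0.46 (TGS1) and -0.49 (FBL) with harringtonine. Of these 6 genes, FBL had an interval with harringtonine that excludes 0 (-0.77 to -0.22).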

How the data were processed

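Ribosome footprints were measured in 12 HEK293 samples, 3 knockout and 5 wild-type with cycloheximide, 1 knockout and 3 wild-type with harringtonine. Reads were aligned with TopHat to hg19, per the submitters' processing notes. Counting tool, annotation and strand handling were not given in the sources used here. Per gene and group, the authors deposited 1 signal, a mean ribosome density, per the file headers. The deposited LFC columns hold log2 ratios by their values, and the deposited TE columns a score whose name the header does not expand.

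Rows without a knockout value (918), on alternate sequences (290) or with an LFC that differed from the ratio of means by over 1e-06 (175) were set aside. Of 12091 genes with all 4 means above 0, the 6045 above the median level were compared, as log2 ratios minus their median. The steps behind effective reads were products of density and length repeated at least 5 times. Of 12981 knockout values with harringtonine, 840 were whole multiples of the step within 0.005, and 1 of 47 members, so effective reads are estimates. Clopper-Pearson intervals (scipy 1.17.1) were checked on simulated data and cover counting error only. The simulated reads were whole counts drawn on the same steps, so that check cannot show whether the steps themselves hold. Nothing in the labels says that samples came from separate cultures. Values in all 4 groups are given for genes at least 2-fold from the median gene in any comparison or counted at 100 or more effective reads in every group (0 genes), and for METTL3, METTL14, METTL1, NSUN2, TRMT6, TRMT61A and TRMT112. Other members were picked for mention from their values. The genes named from the lists of non-members are the 3 per list with the largest ratio over counting error. The planned limma test needed values per sample and was not run. The members and lists were chosen with earlier results of these data known. RefSeq names were matched by gene ID for 50 of 50 genes.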

Additional observations from a re-analysis of the deposited data

How the results depend on the processing

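No paired analysis was possible because the table holds 1 mean per group, and for the same reason leaving out a library was not run. The 5 other settings each changed 1 choice, and counts below are genes at least 2-fold from the median gene, or from a ratio of 1 without centring. Without centring, 5 genes were lower in the knockout with cycloheximide (NSUN2, TRMT5, TRMT10C, TRMT11 and METTL18), 6 lower with harringtonine, 2 lower with harringtonine over cycloheximide in the knockout and 2 higher in wild type. With no level filter, 47 genes entered. Then 2 were higher (METTL24 and METTL4) and 3 lower in the knockout with cycloheximide, 7 higher and 5 lower with harringtonine, 9 higher for harringtonine over cycloheximide in the knockout and 3 higher in wild type. With a pseudocount of 0.1, 2 were higher (METTL14 and METTL23) and 0 lower in the knockout with harringtonine. For harringtonine over cycloheximide that setting gave 0 higher and 1 lower (METTL24) in the knockout, and 0 higher and 0 lower in wild type. With a minimum of 30 effective reads per group, 15, 5, 4 and 19 genes remained in the comparisons of knockout over wild type with cycloheximide, knockout over wild type with harringtonine, harringtonine over cycloheximide in the knockout and harringtonine over cycloheximide in wild type. Then 1 was higher (METTL14) and 0 lower in the knockout with harringtonine, 0 higher and 0 lower for the drug in the knockout, and 0 lower in wild type. Upper-quartile scaling moved no count by over 1.5 times. With that minimum of 30 the members left had a median of 0.46 for the knockout over wild type with cycloheximide, against -0.01, and of 0.23 with harringtonine, against -0.14. With cycloheximide 15 of the 31 genes reached the minimum in the knockout and 29 in wild type, and with harringtonine 5 and 19. It thus keeps genes largely by their knockout value, and ratios were centred anew on the genes left. These medians therefore do not show a shift of the members. For harringtonine over cycloheximide in the knockout the median was 0.14 without centring and 0.05 with no level filter, against -0.14. The cause of the changes with the pseudocount was not tested. METTL24 was at least 2-fold higher with cycloheximide under all 5 settings. Of the ratios of single genes under those settings, 4 left their counting interval, all without centring: NSUN2 at -1.16, METTL2A at -0.45, TRMT112 at -0.10 and METTL2B at 0.08. The low counts with harringtonine limit the knockout most, where the 31 genes had a median of 12.0 effective reads.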
